A study of Mus musculus with 185 samples.

Results

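The genes described here are the mouse Fc receptor genes Fcer1g, Fcgr2b, Fcgr3, Fcgr4, Fcgr1 and Fcgrt, which were chosen by name and are 6 of the 45661 genes listed for each cell. They were measured by single-cell RNA sequencing of Langerhans cells (LCs), the MHCII+ antigen-presenting cells of the epidermis. The cells came from bone marrow chimeras (BMC), in which CD45.1 Cd207DTR hosts on the B6 background were irradiated and given CD45.2 wild-type bone marrow. The Cd207DTR allele of every host places the receptor for diphtheria toxin (DT) under Cd207. All hosts had been inoculated with 5 ng/g of DT, and 2 months passed before the cells were sorted, so both groups come from irradiated, DT-inoculated animals. Host cells (label E) are embryonic LCs (eLCs) and donor cells (label M) are monocyte-derived LCs (moLCs). Cells sorted as CD11c+, CD11b+, CD24+, MHCII+ and CD326+, and negative for lineage markers that included CD3, Nk1.1, Ly6G and SiglecF, were assigned by CD45.1 or CD45.2, and no age or animal is given for any cell.

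Of 185 cells, 182 had at most 5% of reads on mitochondrial (mt-) genes and were kept. They were 103 moLCs (67 on plate 1 and 36 on plate 2) and 79 eLCs (29 on plate 1 and 50 on plate 2). Reads on genes ran from 432614 to 4525429 per kept cell, and the median moLC had 2948819 and the median eLC 2779080. With no animal named, each origin is 1 sample, so no test was run between origins and cells are not replicates. Values are counts per 1000000 reads (CPM) of the summed cells of an origin, shares of cells with at least 1 read, and values of single cells. The intervals given are 95% intervals for counting error alone and leave out the spread from PCR copies, cells and animals. Genes with a read in 25% or more of either origin's cells are called widely read. The 9 LC markers examined, Cd207, Epcam, Csf1r and MHCII genes among them, had a read in 74.8% to 100% of the cells of each origin. Cd207 itself was far higher in moLCs, by 3.60 on the log2 scale over both plates, 3.60 on plate 1 and 3.50 on plate 2. The eLCs carry the Cd207DTR allele and are host cells that remained after DT, while the moLCs carry the wild-type gene. For Cd207, origin, allele and survival of DT therefore cannot be told apart in these cells. Of the markers of mast cells or basophils, Kit had a read in 13.6% of moLCs and in 10.1% of eLCs, while the other 9 had no read. Of 5 neutrophil markers, only S100a9 was read, in 1.94% of moLCs. Lists for other cell types were not empty. For dermal dendritic cells (DC1), Cadm1 reached shares of 30.1% (moLCs) and 49.4% (eLCs), and Itgae 11.7% and 19.0%. Xcr1 stood at 6.80% and 15.2%. The B cell gene Ighm had shares of 8.74% and 8.86%, and the keratinocyte gene Krt14 10.7% and 3.80%. No T or NK cell marker exceeded 2.53% of either origin, and no melanocyte marker 1.94%. Markers of monocytes or macrophages were present in part, with 7 of 11 widely read, while Ly6c2, Ccr2, Cx3cr1 and Mertk were read in at most 1.94% of either origin.

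Fc receptors bind the constant part of antibodies and so tie antibody-coated particles to the cell that carries the receptor. The activating receptors for IgG, FcγRI (Fcgr1), FcγRIII (Fcgr3) and FcγRIV (Fcgr4), depend on the common γ chain (Fcer1g), whose tyrosine-based activation motif (ITAM) recruits the kinase Syk, whereas FcγRIIB (Fcgr2b) carries an inhibitory motif (ITIM) in its own tail and recruits the phosphatase SHIP1 (Inpp5d). The neonatal receptor FcRn (Fcgrt) pairs with β2-microglobulin (B2m) and returns IgG from endosomes to the cell surface. In mouse epidermis, LCs are known to bind IgG through FcγRIIB and FcγRIII.

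In GRCm38 (the assembly of mm10) 4 of the genes lie together on chromosome 1, namely Fcgr2b (ENSMUSG00000026656.15, chr1:170958617-170976547, minus strand), Fcgr4 (ENSMUSG00000059089.4, chr1:171018920-171029761, plus strand), Fcgr3 (ENSMUSG00000059498.13, chr1:171051174-171064935, minus strand) and Fcer1g (ENSMUSG00000058715.11, chr1:171229572-171234365, minus strand). Fcgr1 (ENSMUSG00000015947.10) is at chr3:96282909-96293969 and Fcgrt (ENSMUSG00000003420.8) at chr7:45092990-45103851, both on the minus strand. GENCODE M21 places the antisense gene Gm38204 over part of Fcgr2b, with 103 reads in 7 cells, and the antisense gene Gm45669 over part of Fcgrt. Without a stated use of strand in counting, reads of such partners cannot be told apart.

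The stretches that set the activating adaptor and the inhibitory receptor apart are shown as coding bases, from the GENCODE M21 transcripts, 5′ to 3′, with the codons of the motif's tyrosines and of the leucines that follow each in capitals. The Fcer1g stretch codes for residues 65 to 79 of 86 and is spliced from chr1:171230067-171230072 and chr1:171229889-171229927, and the Fcgr2b stretch codes for residues 317 to 322 of 340, from chr1:170961071-170961088, all on the minus strand.
Fcer1g ITAM: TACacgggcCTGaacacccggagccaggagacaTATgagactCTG
Fcgr2b ITIM: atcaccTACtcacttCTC

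Fcgr2b and Fcgr3 resemble each other most in the exons for the extracellular part. Coding exon 4 of each is shown because the reads of both genes are compared below, with the bases that differ in capitals. Both exons are on the minus strand, Fcgr2b at chr1:170966446-170966700 and Fcgr3 at chr1:171053939-171054193.
Fcgr2b coding exon 4: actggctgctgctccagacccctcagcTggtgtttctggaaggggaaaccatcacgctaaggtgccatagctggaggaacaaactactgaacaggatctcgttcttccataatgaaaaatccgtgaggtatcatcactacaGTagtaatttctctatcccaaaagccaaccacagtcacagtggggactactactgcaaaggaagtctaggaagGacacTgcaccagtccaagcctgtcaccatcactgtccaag
Fcgr3 coding exon 4: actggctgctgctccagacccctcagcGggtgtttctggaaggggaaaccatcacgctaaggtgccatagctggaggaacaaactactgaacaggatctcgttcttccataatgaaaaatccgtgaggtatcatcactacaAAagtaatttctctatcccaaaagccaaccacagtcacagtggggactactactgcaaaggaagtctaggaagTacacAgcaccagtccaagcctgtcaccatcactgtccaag
These exons differed at 5 of 255 bases (98.04% identical, longest identical run 113 bases). Coding exon 3 of Fcgr2b (chr1:170967980-170968234) and of Fcgr3 (chr1:171057691-171057945) differed at 14 of 255 (94.5% identical, longest run 102 bases). Across the coding sequences the longest exact stretch in common was 129 bases, spanning the junction of both exons. Of the 1733 distinct 75-base stretches of Fcgr3 transcripts, 94 (5.42%) also occur in Fcgr2b transcripts and none in those of Fcgr1 or Fcgr4. The reads were 75 bases long and paired.

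Fcer1g, the common γ chain, was read in all 79 eLCs and in 102 of 103 moLCs (99.0%, 94.7 to 99.98%). Its summed level was 567 CPM in moLCs and 618 CPM in eLCs. In single moLCs it ranged from 0 to 2209 CPM with a median of 505 CPM, and in single eLCs from 82.8 to 3187 CPM with a median of 607 CPM, so the origins overlapped over nearly the whole range. As moLC over eLC, the log2 ratio was -0.12 (-0.13 to -0.11). It was 0.14 within plate 1 (538 and 489 CPM) and -0.18 within plate 2 (621 and 705 CPM), so the direction turned between plates. Among eLCs the plates were further apart than the origins were in the pooled cells.

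The moLC without a Fcer1g read was on plate 1 and had 3086651 reads in all, 148215 of them on Cd207, 984 on Tyrobp and 252 on Epcam. It had no read of any other member either. Among the 182 cells, 1 had a read of none of the 6 genes, 6 of 1 gene, 39 of 2, 117 of 3 and 19 of 4, and no cell had more.

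Fcgr2b, the inhibitory IgG receptor, was the member with the most reads in both origins. Reads were found in 96 of 103 moLCs, which is 93.2% (86.5 to 97.2%), and in 77 of 79 eLCs, which is 97.5% (91.2 to 99.7%). Its summed level was 799 CPM in moLCs against 871 CPM in eLCs. In single cells it ranged from 0 to 3043 CPM in moLCs (median 728 CPM) and from 0 to 2758 CPM in eLCs (median 734 CPM). The medians lay close together and the ranges overlapped. The log2 ratio was -0.12 (-0.13 to -0.12) in the pooled cells, -0.31 within plate 1 (781 and 971 CPM) and 0.052 within plate 2 (832 and 803 CPM). As with Fcer1g, the direction turned between plates, in the opposite sense.

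The 9 cells with no Fcgr2b read were not shallow, with 2053825 to 3389938 reads each. They were 6 moLCs of plate 1, 1 moLC of plate 2 and 2 eLCs of plate 2. Fcer1g ranged from 0 to 1856 CPM in them, with a median of 361 CPM. A Cd207 read was present in 8 of the 9 and an Epcam read in 8 of the 9. None of them had a Fcgr3 read, and 1 had a Fcgrt read.

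**Figure D1:**
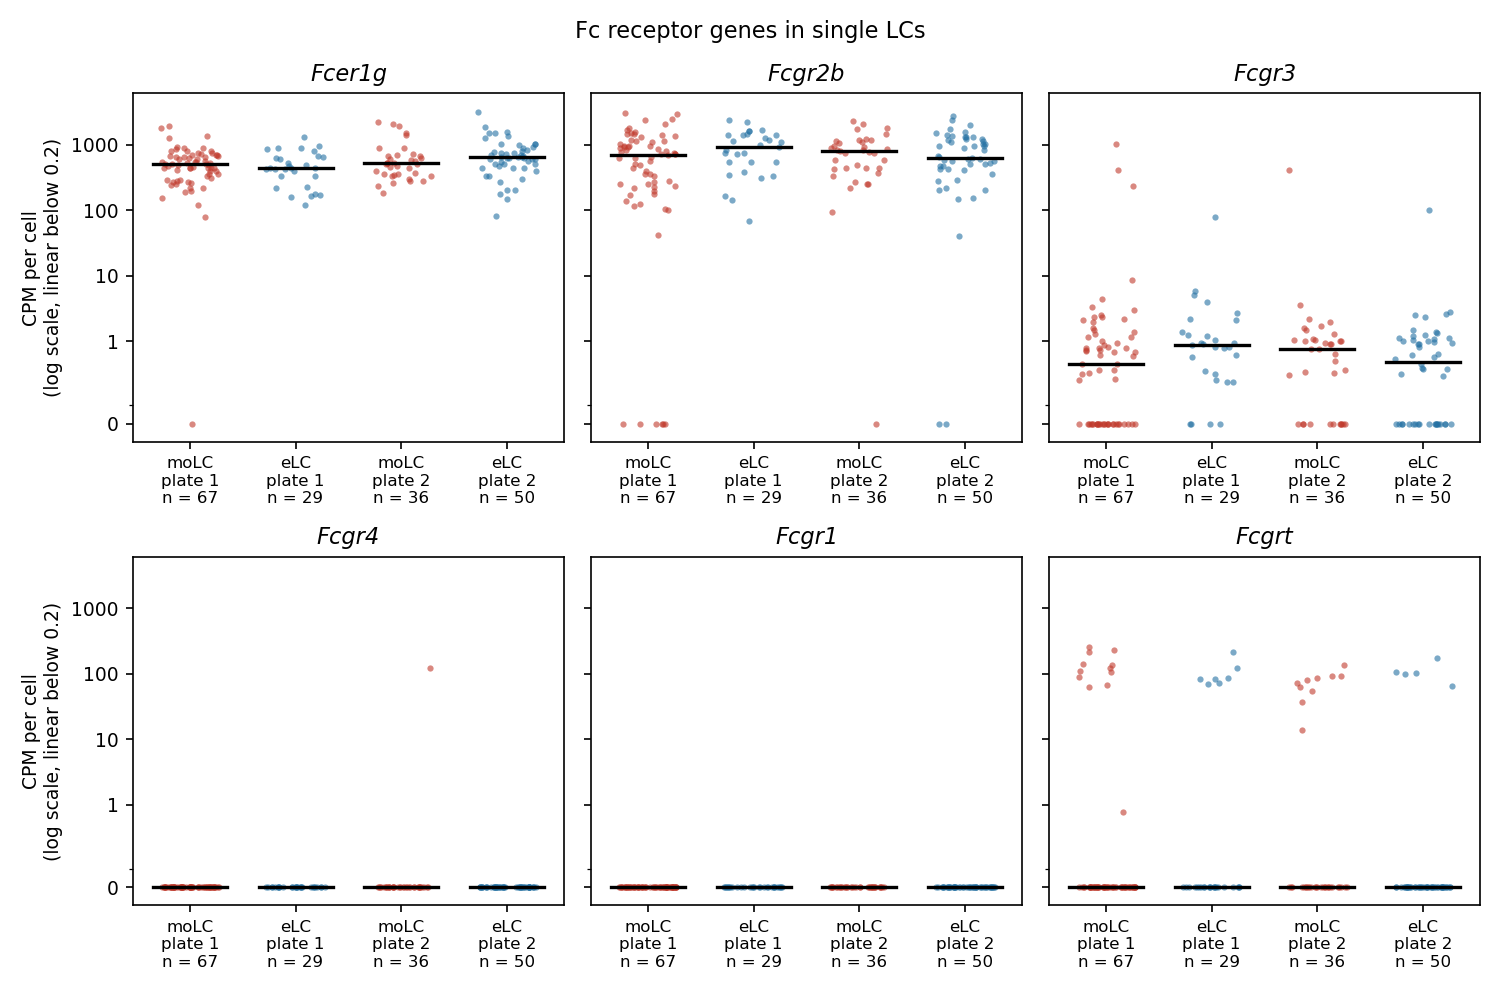
CPM of the 6 Fc receptor genes in each of 182 LCs, by origin and plate, on a log axis that is linear below 0.2. Points are cells and black lines are medians. Fcer1g and Fcgr2b were read in most cells of all 4 groups, Fcgr3 in many cells at about 1 CPM and in 6 cells at 79.3 CPM or more, Fcgrt in 34 cells, Fcgr4 in 1 cell and Fcgr1 in none.

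Fcgr3, the ligand-binding chain of FcγRIII, was read in 66 of 103 moLCs, a share of 64.1% (54.0 to 73.3%), and in 56 of 79 eLCs, a share of 70.9% (59.6 to 80.6%). Most of these cells had very few reads, since the median cell had 2 in either origin, and with at least 10 reads asked for the shares were 6.80% of moLCs and 3.80% of eLCs. Summed over cells, moLCs were at 18.0 CPM against 4.23 CPM for eLCs, so the log2 ratio was 2.09 (1.99 to 2.19). It was 2.18 within plate 1 (21.8 and 4.81 CPM) and 1.5 within plate 2 (10.8 and 3.83 CPM). All widely read genes were put to a size rule, which asks for a difference of 2-fold or more that points the same way within each plate and with both plates pooled. Of the 3 widely read members (Fcer1g, Fcgr2b and Fcgr3), Fcgr3 was past the rule, higher in moLCs. Fcgr3 counted as widely read only through cells with very few reads. With at least 10 reads asked for, its shares of 6.80% and 3.80% would have kept it out of the rule. Among all 6522 widely read genes, 132 (2.02%) were past it, 53 (0.813%) as higher in moLCs and 79 (1.21%) as higher in eLCs (72 and 60 when totals were scaled by TMM), and 373 (5.72%) were 2-fold apart in the pooled cells alone.

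A handful of cells carried this difference. In 6 cells Fcgr3 had 334 reads or more, and these cells held 5940 of its 6331 reads (93.8%). They were 3 moLCs of plate 1 with 2288, 1213 and 638 reads (1037, 408 and 237 CPM), 1 moLC of plate 2 with 1055 reads (409 CPM), 1 eLC of plate 1 with 334 reads (79.3 CPM) and 1 eLC of plate 2 with 412 reads (99.0 CPM). The next cell down had 13 reads, so the 6 cells were set apart from the rest in both origins, and the 4 moLCs were above both eLCs. Without the moLC with 2288 reads the pooled ratio was 2.48-fold, in place of 4.26-fold, and without the eLC with 412 reads it was 7.56-fold. With the highest cell of each origin and plate left out, 2 of the 4 moLCs and neither eLC remained. The log2 ratio was then 3.07 over both plates and 3.27 on plate 1, but 0.14 on plate 2 (77 and 86 reads), so Fcgr3 was no longer past the size rule.

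The 6 cells had Fcgr2b at 1106 to 2447 CPM, Fcer1g at 465 to 1888 CPM and Epcam at 678 to 2097 CPM. The moLC with 2288 Fcgr3 reads had the lowest Cd207 of the 6, at 42.6 CPM. Cd207 was at 19326 CPM in the moLC with 1213 reads, 12077 CPM in that with 638 and 467 CPM in that with 1055. All 4 were below the median moLC, at 23839 CPM. The eLCs were at 2505 CPM on plate 1 and 466 CPM on plate 2, beside a median of 1448 CPM. The moLC with 2288 Fcgr3 reads also held 26 of the 34 Ccr2 reads of all moLCs, and the others of the 6 had none. Lyz2, a lysozyme gene of monocytes and macrophages, had 76 to 919 reads in the 4 moLCs and none in the 2 eLCs, and Ly6c2 had no read in any of the 6. Adgre1, which encodes F4/80, was read in all 6 cells, with 28 to 2698 reads. The part of monocyte or macrophage genes in the Fcgr3 values was not tested.

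In the other 176 cells, 116 had 1 to 13 Fcgr3 reads, 391 in all, at 0.745 CPM in moLCs and 0.835 CPM in eLCs. There the number of Fcgr3 reads went with the number of Fcgr2b reads (Spearman 0.64 over 176 cells, both counted in the same library) and not with that of Fcer1g (Spearman -0.0034) or with the cell's total (0.10). Of cells with no Fcgr2b read, 0 of 9 had a Fcgr3 read. Cells with Fcgr2b reads were put in 4 bins of nearly equal size by their number. In the lowest bin (45 to 988 Fcgr2b reads), 13 of 42 cells had a Fcgr3 read (31.0%). In the next (990 to 1991) it was 29 of 42 (69.0%), then 35 of 41 (85.4%, at 2000 to 3512) and in the highest bin (3527 to 9409) 39 of 42 (92.9%). Median totals of these 4 bins ran from 2644616 to 3143406 reads.

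The ratio of the genes was steady in these 176 cells. There were 0.980 Fcgr3 reads per 1000 Fcgr2b reads in moLCs (0.853 to 1.12) and 0.984 in eLCs (0.843 to 1.14). By plate it was 1.02 and 0.916 in moLCs and 1.13 and 0.867 in eLCs, all with overlapping intervals. In the 6 cells set apart there were 50.03 to 424 Fcgr3 reads per 1000 Fcgr2b reads. How reads from the stretches that Fcgr2b and Fcgr3 have in common were counted is not given in the sources used here, and their part in the low Fcgr3 values was not tested.

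**Figure D2:**
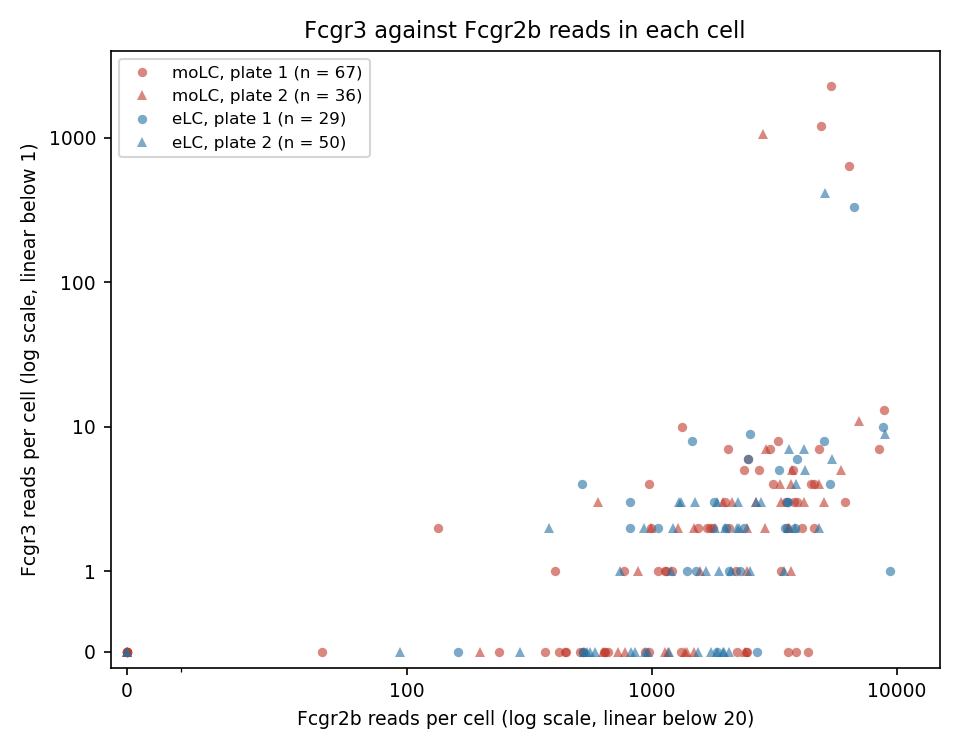
Reads of Fcgr3 against reads of Fcgr2b in each of 182 LCs, both on log axes that are linear near 0, with color for origin and symbol for plate. The 9 cells without a Fcgr2b read lie at 0 for both genes, the other low cells climb from 0 to 13 Fcgr3 reads as Fcgr2b reads increase, and 6 cells stand apart at 334 to 2288 Fcgr3 reads.

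Fcgr1, which encodes the high-affinity IgG receptor CD64, had no read in any cell. That is 0 of 103 moLCs, which allows a share of up to 2.91%, and 0 of 79 eLCs, which allows up to 3.80%, with a limit of 3 cells set on a count of 0. The Clopper-Pearson upper bounds, as given for the other shares, were 3.52% and 4.56%. At 3 reads over the group, the limit on its level was 0.00999 CPM in moLCs and 0.0138 CPM in eLCs. The same holds for the 3 cells left out by the mitochondrial filter, in which Fcgr1 had no read.

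Fcgr4, the ligand-binding chain of FcγRIV, was read in 1 moLC of plate 2, with 294 reads (120 CPM in that cell). In no other cell, and in 0 of 79 eLCs (up to 3.80%), was it read. Over the summed cells the level in moLCs was 0.979 CPM, at least 71.1-fold higher than the limit of 3 reads over the eLCs, a bound that rests on that cell alone. The cell had Fcer1g at 659 CPM, Cd207 at 14858 CPM, Csf1r at 1121 CPM and C1qa at 394 CPM, but no read of Fcgr2b, Fcgr3, Fcgrt or Lyz2.

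Fcgrt, which encodes the heavy chain of FcRn, was read in a minority of cells, 22 of 103 moLCs (21.4%, 13.9 to 30.5%) and 12 of 79 eLCs (15.2%, 8.10 to 25.03%). Where it was read it was usually well above 1 read. Among cells with a read the median was 89.8 CPM in moLCs (0.788 to 255 CPM) and 93.0 CPM in eLCs (64.6 to 217 CPM). The summed level was 23.5 CPM in moLCs against 13.0 CPM in eLCs, and the log2 ratio was 0.85 (0.79 to 0.92). The plates were unequal, with 0.23 within plate 1 (25.8 and 22.1 CPM) and 1.47 within plate 2 (19.1 and 6.88 CPM). Shares of cells turned with the plate, with 17.9% of moLCs and 24.1% of eLCs on plate 1 and 27.8% and 10% on plate 2. B2m, the partner chain of FcRn, was read in all cells, at 1331 CPM in moLCs and 1358 CPM in eLCs.

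Co-detection with Fcer1g followed from its near-universal detection. Of the 181 cells with a Fcer1g read, 173 also had Fcgr2b (95.6%, 91.5 to 98.1%), 122 Fcgr3 (67.4%, 60.1 to 74.2%), 34 Fcgrt (18.8%, 13.4 to 25.2%), 1 Fcgr4 (0.552%) and none Fcgr1. No member was read in a cell that lacked Fcer1g, which was 1 cell. By origin, Fcgr2b accompanied Fcer1g in 94.1% of moLCs and 97.5% of eLCs, and Fcgr3 did so in 64.7% and 70.9%. With every cell brought to 2052512 reads by random thinning (7 moLCs and 12 eLCs were too shallow), Fcgr3 was found in 55.8% of moLCs and 67.2% of eLCs that had a Fcer1g read, and Fcgr2b in 93.7% and 97.0%.

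**Figure D3:**
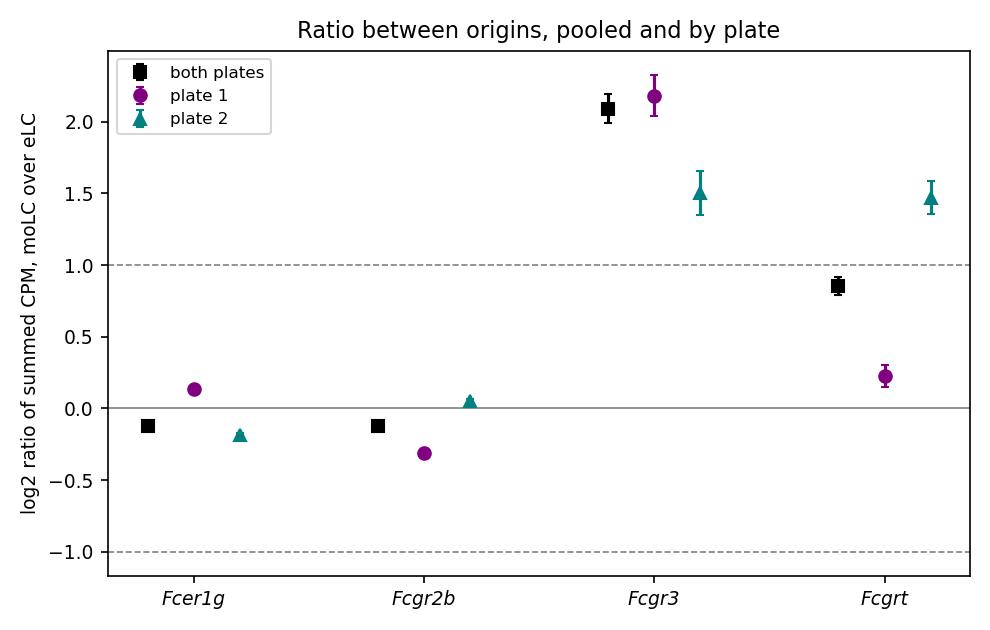
Log2 ratio of the summed CPM, moLC over eLC, for the 4 members read in more than 1 cell, in both plates and within each plate. Bars are counting intervals at 95%, often smaller than the symbols, and dashed lines mark a 2-fold difference. Fcgr3 was above 1 throughout, Fcgrt on plate 2 only, and Fcer1g and Fcgr2b changed side between plates.

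On the scale of CPM per kilobase of merged exons, on which levels of different genes can be set side by side, Fcer1g was highest, at 649 in moLCs and 707 in eLCs. Fcgr2b came next, at 138 and 150. By plate, Fcer1g lay between 559 and 807 and Fcgr2b between 135 and 168 in the 4 groups of cells, so these levels did not overlap. In single cells Fcer1g was above Fcgr2b per kilobase in 176 of 182 cells. The size of this gap depended on the gene length used, because Fcgr2b has merged exons of 5790 bases but coding transcripts of 1917 bases on average. With the latter, Fcer1g was at 836 and Fcgr2b at 417 in moLCs, 911 and 454 in eLCs, and Fcer1g was above Fcgr2b in 139 of 182 cells.

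Fcgrt and Fcgr3 followed at a much lower level per kilobase. Fcgrt was at 11.2 in moLCs and 6.19 in eLCs, and Fcgr3 at 10.4 and 2.44. Their order turned between plates of moLCs (Fcgr3 12.6 and Fcgrt 12.3 on plate 1, 6.25 and 9.08 on plate 2), so in moLCs these neighbours did not differ beyond their spread. In eLCs Fcgrt was the higher on both plates (10.5 and 2.77 on plate 1, 3.27 and 2.21 on plate 2), but these sums also rest on few cells. Fcgrt was read in 7 of 29 eLCs on plate 1 and in 5 of 50 on plate 2. On each plate 1 eLC held most Fcgr3 reads, 334 of 423 on plate 1 and 412 of 498 on plate 2. Fcgr4 was at 0.779 in moLCs, and Fcgr1 had no read.

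**Figure D4:**
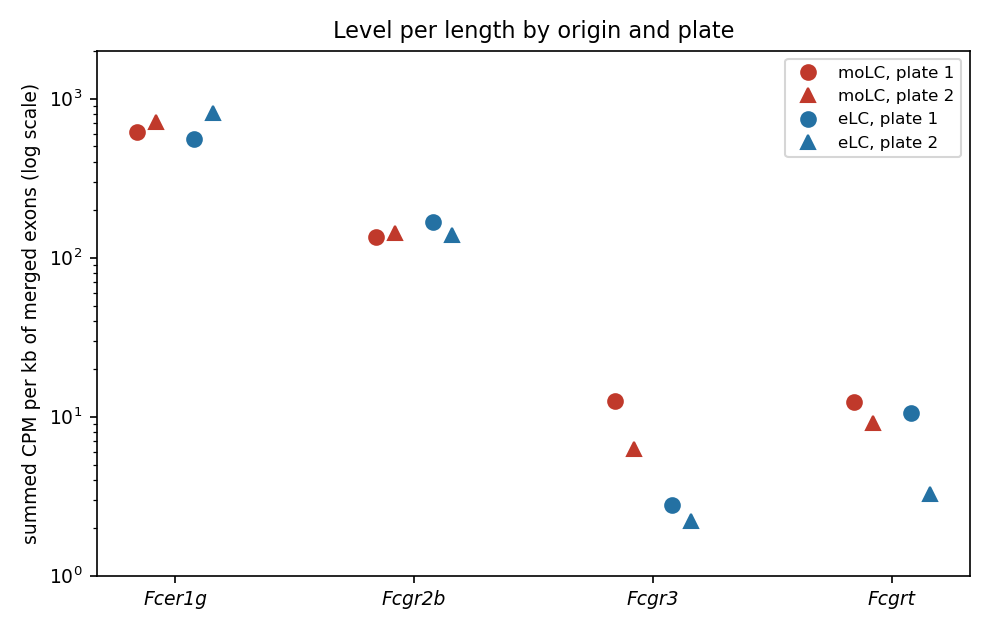
Summed CPM per kilobase of merged exons for 4 Fc receptor genes, on a log axis, by origin (color) and plate (symbol). Fcer1g lies between 559 and 807 and Fcgr2b between 135 and 168, while Fcgr3 and Fcgrt lie between 2.21 and 12.6 and overlap each other.

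Genes whose CPM varied most like that of a member were sought among the 3649 genes with a read in 50% or more of either origin's cells, by the mean Spearman correlation over the 4 groups of origin and plate. These correlations describe variation among cells and carry no test. The part of depth and of base composition in them was not tested. For Fcer1g they were S100a6 (0.59, 0.39 to 0.77 over the groups), Sh3bgrl3 (0.59, 0.41 to 0.81) and Cd52 (0.58, 0.31 to 0.80), which encode small proteins. Tyrobp, the adaptor DAP12, ranked 10 (0.46, 0.11 to 0.65). Fcgr2b (0.060) and Fcgr3 (0.048) were near 0 and Cd207 was negative on average (-0.26, -0.59 to 0.043).

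For Fcgr2b the leading gene was Fcgr3 (0.62, 0.50 to 0.70), far ahead of Atp6v0a1, a subunit of the vacuolar proton pump (0.33), and Sacm1l, a phosphoinositide phosphatase (0.29). For Fcgr3 they were Fcgr2b (0.62), Sacm1l (0.34) and Cebpb, a transcription factor of myeloid cells (0.33). The correlation of Fcgr3 with Fcgr2b was on CPM here and included the 6 cells with many Fcgr3 reads. The Spearman of 0.64 given above was on reads and left those cells out. In pooled cells, the CPM of Fcgr2b and Fcer1g had a Spearman correlation of 0.070 over 182 cells.

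Other Fc receptors were largely unread. Of 13, Fcer1a and Ms4a2, the other chains of the mast cell IgE receptor, had no read in any cell, nor did Pigr, Fcrl5 and Fcrl6. Fcrlb, an Fc receptor-like gene next to the cluster on chromosome 1, was the only widely read one, in 33.0% of moLCs and 35.4% of eLCs, at 72.0 and 86.6 CPM. Its log2 ratio was -0.27, with 0.10 within plate 1 and -1.05 within plate 2. Per kilobase, Fcrl1 (7.47 and 1.37 CPM, in 8.74% and 2.53% of cells) and Trim21, the cytosolic antibody receptor (1.605 and 2.002 CPM), came next.

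Among the other ITAM adaptors, Tyrobp was read in every cell, at 1212 CPM in moLCs against 1456 CPM in eLCs. Its log2 ratio was -0.26, with 0.021 and -0.28 by plate. Hcst, which encodes DAP10, was read in 24.3% and 22.8% of cells at 9.32 and 9.12 CPM, and Cd247, the ζ chain, had no read. Of 9 receptors known to couple to the common γ chain, 2 were widely read. Clec4n (Dectin-2) was at 278 CPM in moLCs and 182 CPM in eLCs, and Clec4d at 32.5 and 20.3 CPM. Both were higher in moLCs on each plate, by 0.61 and 0.68 on the log2 scale in pooled cells, short of the size rule. Pira2 was at 6.92 and 5.25 CPM, and Oscar, Gp6 and Ncr1 had no read.

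Of 8 other ITIM receptors listed in the table, 3 were widely read and none was past the size rule, with a median log2 ratio of 0.66 beside -0.10 over all 6522 genes. Cd300a had reads in 54.4% of moLCs and in 34.2% of eLCs, at 156 and 69.7 CPM. Its log2 ratio was 1.16 pooled, 0.76 on plate 1 and 1.66 on plate 2. Pirb was at 50.7 and 44.9 CPM, with log2 ratios of -0.13 on plate 1 and 0.55 on plate 2. Sirpa, whose pooled ratio is the median of the list, was at 45.9 and 29.0 CPM, with 1.07 and -0.52 by plate, so both turned between plates.

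Of 22 genes of activating Fc receptor signalling, 17 were widely read. Gab2, a docking protein for the kinase PI3K, was past the size rule, higher in moLCs (27.1 and 11.6 CPM), and no gene was past it in the other direction. Its log2 ratio was 1.22, with 1.02 within plate 1 and 1.15 within plate 2, and it had reads in 33.0% of moLCs and in 17.7% of eLCs. That is 1 of 17 genes, beside 2.02% of all genes. The median log2 ratio of the 17 was 0.039. Of 11 genes of inhibitory signalling, 7 were widely read and none was past the rule, with a median log2 ratio of 0.0035. The most abundant per kilobase were Dok3 (226 and 225 CPM), an adaptor that restrains tyrosine kinase signals, Ptpn6, which encodes the phosphatase SHP-1 (169 and 108 CPM), and Dok1 (21.2 and 17.2 CPM). The median over all genes was -0.073 within plate 1 and -0.095 within plate 2.

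**Figure D5:**
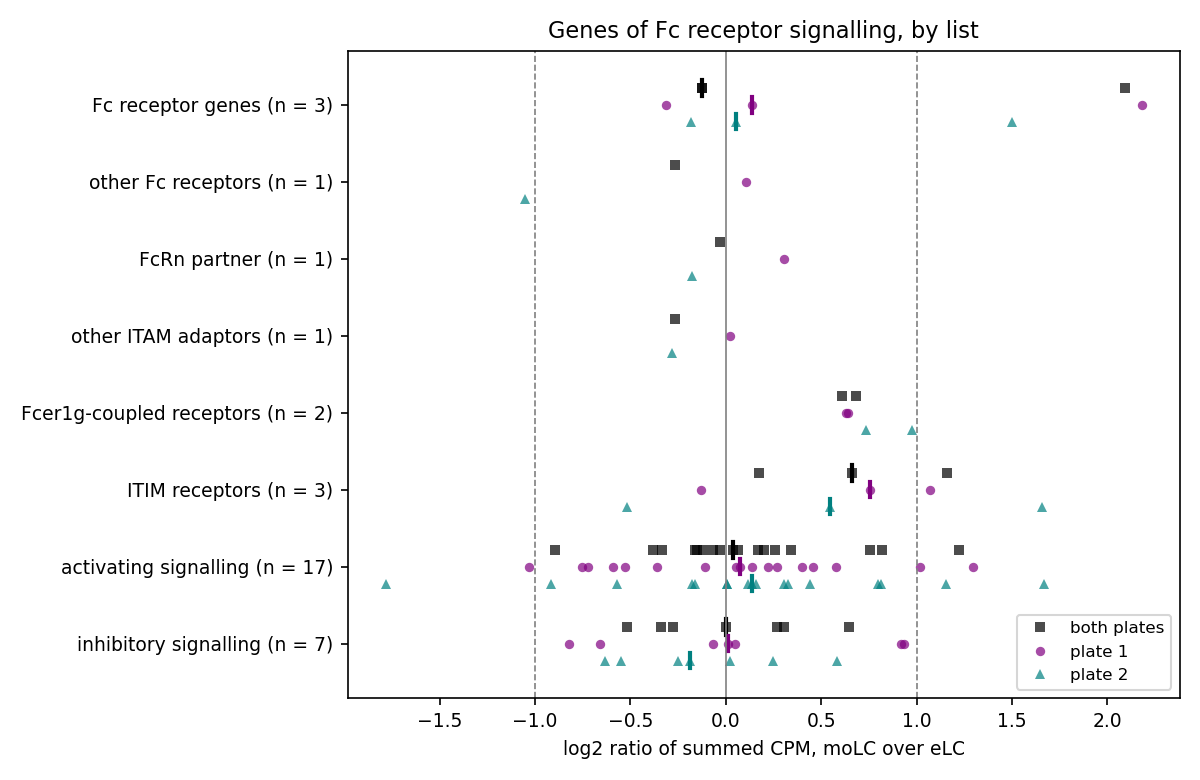
Log2 ratio of summed CPM, moLC over eLC, of each widely read gene of the Fc receptor, adaptor and signalling lists, in both plates and within each plate. Points are genes, short bars are medians of lists with 3 or more genes, and dashed lines mark 2-fold. Of the genes plotted, Fcgr3 and Gab2 lie beyond 1 in the pooled cells and within each plate.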

How the data were processed

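The authors prepared full-length cDNA of single LCs with a Smart-Seq kit, mapped the reads with STAR against mm10 and deposited raw counts of reads per gene and cell, without normalization. The counting tool and annotation are not given in the sources used here. Without molecular identifiers, counts include PCR copies. Columns of 8 cells hold 9 values that are not whole and were deposited as if expected counts, and these were rounded. Cells were grouped by the labelled origin, and values were repeated within each plate. The labels do not say whether the plates also differ in animals or in the sort. The paper's methods removed cells with more than 5% mitochondrial reads, as here. The Wilcoxon test used there treats each cell as a replicate, so it was not run here.

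Counts of all cells of an origin were added and expressed as CPM and log2 ratios, with exact Poisson intervals on sums, binomial on ratios and Clopper-Pearson on shares. An origin at 0 was set to 3 reads over the group, and a share of 0 was limited at 3 cells. Kept cells had 432614 to 4525429 reads. Gene lengths, coordinates and sequences came from GENCODE M21 (GRCm38), whose names match 45495 of the 45661 listed genes. The tools were Python 3.11.15 with numpy 2.4.6, pandas 2.3.3, scipy 1.17.1 and matplotlib 3.10.9, and R 4.3.3 with edgeR 4.0.16 for TMM factors. The size rule and the likeness ranking were tried on simulated data. There every gene had the same relative spread over cells. This did not cover a gene with most of its reads in a few cells, as Fcgr3 had. Single-cell sorting was relied on, without a doublet caller.

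The genes and lists were chosen with earlier results of these data known. Named genes were the members, for each list the genes past the size rule or else the 3 with the highest CPM per kilobase, and the 3 genes most like each member that 50% or more of both origins' cells had read. Tyrobp, Fcgr2b, Fcgr3 and Cd207 beside the Fcer1g ranking, marker genes named with their values, the marker values given for single cells, the division of cells at 100 Fcgr3 reads and the bins of Fcgr2b reads were chosen after the values were seen. As alternatives, single plates were taken, the 3 mitochondrial-rich cells were added back, a minimum of 1000 genes per cell was set (which removed 0 cells), CPM were averaged over cells, and totals were scaled by TMM or stripped of their 50 top genes. Cells were also thinned or left out singly, and gene lengths and thresholds were varied. Seurat's measure of fold change was computed without Seurat, with the pseudocount added to group means.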

Additional observations from a re-analysis of the deposited data

How the results depend on the processing

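No paired analysis was possible because the cells carry no replicate numbers from the labels and no result comes from a test. Reads are many and PCR copies inflate them, so counting intervals on the ratios are narrow and small shifts leave them. No called ratio changed sign. Adding back the 3 excluded cells moved no ratio outside its interval. The minimum of 1000 genes removed 0 cells, the lowest having 2439, so it tested nothing. Leaving out the highest cell of each origin and plate, and the mean length of coding transcripts, were chosen after seeing the data. TMM factors raised every log2 ratio by 0.10.

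Log2 ratios moved as follows. For Fcer1g (-0.12) they were 0.14 on plate 1, -0.18 on plate 2, -0.15 with equal weight for each cell, -0.022 with TMM factors, -0.057 with totals without the 50 top genes, -0.14 thinned and -0.14 without the highest cells, and leaving out each cell gave -0.16 to -0.075. For Fcgr2b (-0.12) they were -0.31, 0.052, -0.14, -0.022, -0.057, -0.021 and -0.10 under the same alternatives in that order, and -0.16 to -0.076 by leaving out each cell. For Fcgr3 (2.09) they were 1.5 on plate 2, 2.76 with equal weight, 2.75 thinned and 3.07 without the highest cells. Leaving out each cell gave 1.31 to 2.92. By Seurat's average log2 fold change Fcgr3 was at 0.23. That measure was computed here with a pseudocount added to the mean of each group, which pulls low genes to 0. Seurat itself was not run, so values by this measure need not match those of the version the paper used. For Fcgrt (0.85) they were 0.23 on plate 1, 1.47 on plate 2, 0.44 with equal weight, 0.95 with TMM, 0.92 without the top genes, 1.08 thinned, 0.071 by Seurat's measure and 1.23 without the highest cells, and leaving out each cell gave 0.65 to 1.31. The bound for Fcgr4 (6.15) was 5.81 thinned and 0.017 by Seurat's measure, and leaving out each cell gave 6.12 to 6.17 wherever the cell with its reads was kept. Without that cell, and without the highest cells, Fcgr4 has no read and no value.

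Shares of cells moved for Fcer1g in moLCs (100% on plate 2), for Fcgr2b in eLCs (100% on plate 1), for Fcgr4 in moLCs (0% on plate 1) and for Fcgr3, at 86.2% of eLCs on plate 1 and, with at least 10 reads, 6.80% of moLCs and 3.80% of eLCs. Co-detection with Fcer1g moved alike, to 100% of eLCs on plate 1 for Fcgr2b, 86.2% of eLCs on plate 1 for Fcgr3, 6.86% of moLCs and 3.80% of eLCs at 10 reads for Fcgr3, and 0% of moLCs on plate 1 for Fcgr4.

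Levels per kilobase depend on the length. With the longest transcript, moLCs and eLCs were at 830 and 905 for Fcer1g, 225 and 246 for Fcgr2b, 13.4 and 3.14 for Fcgr3, and 13.3 and 7.35 for Fcgrt. With the mean coding transcript they were at 836 and 911, 417 and 454, 16.8 and 3.94, and 21.99 and 12.2.

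Past the size rule were 132 genes, Fcgr3 among them. The number was 501 at 1.5-fold, 32 at 3-fold, 479 at 10% of cells, 23 at 50% of cells and 373 in the pooled cells alone. Fcgr3 was past each of these except 3-fold, where 0 members passed, and 0 passed without the highest cells. TMM factors moved the split from 53 higher in moLCs and 79 in eLCs to 72 and 60.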

Other observations

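The 3 moLCs of plate 2 that exceeded 5% of reads on mitochondrial genes had 233438, 572708 and 920430 reads in all. The first had 584 reads of Fcer1g and 12 of Fcgr2b, the second 340 of Fcgr2b and the third 60 of Fcgr2b, and in the latter cells Fcer1g was not read. Fcgr1, Fcgr3, Fcgr4 and Fcgrt had no read in any of the 3.

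Cells with a read of Fcgrt were not deeper than the others. Their median total was 2770829 reads in moLCs and 2363204 in eLCs, beside 2955514 and 2850326 in cells without a Fcgrt read. The median level of B2m was 1300 CPM in moLCs with a Fcgrt read and 1121 CPM in those without, and 1038 and 1208 CPM in eLCs, so it was higher with Fcgrt in moLCs and lower in eLCs. With 22 moLCs and 12 eLCs and no animal named, this was not tested.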
